A study of Mus musculus with 6 samples.

Results

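A group of 10 genes that bone marrow uses to house blood stem cells were examined in stem and progenitor cells of mouse marrow, sorted by a green fluorescent reporter of the gene Hes1. They comprise the niche ligands Cxcl12 and Kitl, the receptors Cxcr4, Lepr, Pdgfra and Pdgfrb, and the matrix genes Bgn, Ibsp, Spp1 and Sparc. Members were chosen by gene name with earlier results on these arrays known, in which Cxcl12 and stromal genes had stood high in GFP-positive cells. The contrast of GFP-positive with GFP-negative arrays is therefore described for them with no test. Of the 10 genes, 9 had probe sets under their symbol, 25 probe sets among 45101 on the array, and 9 of the 18193 genes compared. Spp1 had no probe set under its symbol and was not analysed here.

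The arrays measured 6 samples of lineage-negative, cKit-positive, Sca1-positive marrow cells (LSK cells), the fraction enriched for blood stem cells and early progenitors. All came from mice 6 weeks old that carried 1 GFP and 1 wild-type allele of Hes1 (Hes1 GFP/WT), a repressor downstream of Notch, and the labels do not say whether the GFP allele still makes Hes1. There were 3 GFP-positive and 3 GFP-negative arrays; replicate 1 of each group was female and replicates 2 and 3 were male. The labels do not say whether animals were pooled or whether arrays came from separate animals, so the spread between arrays may be partly technical.

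In marrow, the chemokine Cxcl12 and the stem cell factor encoded by Kitl are made mainly by perivascular stromal cells, many of which carry the leptin receptor Lepr, and by endothelium. Blood stem cells answer through the receptors Cxcr4 and Kit, which hold them in place and keep them alive. Bgn, Ibsp, Spp1 and Sparc encode matrix proteins of bone and connective tissue.

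The 9 measured genes were first read by 1 probe set each, the one of highest mean. By it, Cxcl12 and Bgn stood above every GFP-negative array by at least 1 log2 unit (2-fold) in all 3 GFP-positive arrays. Ibsp and Sparc did so in GFP-positive replicates 1 and 2, and Kitl in GFP-positive replicate 1 alone. Lepr joined Kitl when 3 of its 4 probe sets were read in place of the brightest one. Cxcl12 and Bgn reached this margin in all 3 by only 1 of their 3 probe sets each. Sparc reached it in replicate 1 alone by probe set 1416589_at. With the mean of all probe sets, 0 members reached it in all 3. Cxcr4, Pdgfra and Pdgfrb reached it in no GFP-positive array, by any probe set. Over all genes 0.363% stood 1 unit or more above in all 3 GFP-positive arrays, 0.33% in replicates 1 and 2 alone and 2.41% in replicate 1 alone.

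The sequences just before the annotated starts of 4 matrix and ligand genes are shown first, because these genes stood high in the same array and their promoters are not alike. Each line gives the 120 bases before the start, read 5′ to 3′ on the gene's strand, from RefSeq on GRCm38.p6. They lie at chr6:117168415-117168534 (plus strand) for Cxcl12, chrX:73483481-73483600 (plus) for Bgn, chr5:104299167-104299286 (plus) for Ibsp and chr11:55420081-55420200 (minus) for Sparc. Capitals mark matches to the TATA motif TATAAA, the CCAAT motif or the GC box GGGCGG, each on either strand.
Cxcl12: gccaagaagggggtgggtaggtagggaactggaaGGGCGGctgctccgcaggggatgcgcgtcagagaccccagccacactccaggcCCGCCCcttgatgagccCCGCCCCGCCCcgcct
Bgn: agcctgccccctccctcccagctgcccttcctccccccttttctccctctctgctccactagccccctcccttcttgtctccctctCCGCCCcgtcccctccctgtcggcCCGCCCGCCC
Ibsp: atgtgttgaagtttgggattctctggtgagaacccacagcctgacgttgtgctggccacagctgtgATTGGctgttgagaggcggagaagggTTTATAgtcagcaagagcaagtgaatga
Sparc: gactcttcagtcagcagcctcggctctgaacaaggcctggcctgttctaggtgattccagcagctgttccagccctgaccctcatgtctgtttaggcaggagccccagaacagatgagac

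The Cxcl12 and Bgn sequences were 71.7% G and C each, with 4 and 3 GC boxes, neighbouring ones partly overlapping. Ibsp had 50% G and C, a TATA motif on the opposite strand starting 28 bases before the start and a CCAAT motif on the opposite strand starting 54 bases before it. Sparc, at 56.7%, held none of these letters in the stretch shown. Windows of 300 bases, from 250 before to 50 after the start, were searched in the same way for all 32851 RefSeq promoters: 13.6% held the TATA motif, 37.4% the CCAAT motif and 35.7% the GC box. These features did not sort the members by their levels: in the longer windows Kitl was 68.7% G and C, above Cxcl12 at 64.7% and Bgn at 63.7%, and Kitl, Cxcr4 and Bgn each held 3 GC boxes. A match describes the letters and is no evidence of a bound factor.

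GFP-positive replicate 1 stood apart from the other arrays before any of these genes is considered. In it 57 genes lay at least 3 log2 units above every other array, against 2 to 9 genes in each of the other 5 arrays. Differences of the members and medians of the gene lists are therefore given with and without it. Without it limma also called 0 of the 18193 genes (smallest adjusted p = 0.0857). Hes1, whose reporter set the gate, was at 7.36, 7.09 and 7.84 in the GFP-positive arrays and 6.78, 6.79 and 7.10 in the GFP-negative ones, so that replicate 2 of the first lay just below replicate 3 of the second. Here and below, values run in the order of replicates 1, 2 and 3. Xist lay between 12.50 and 12.72 in the female arrays, and 3 Y-linked genes lay at or below 4.69 there. Xist reached at most 5.59 in male arrays, so 4.69 and 5.59 serve as rough guides to background, since the files carry no detection calls and probe sets differ in brightness. Of the genes that define the gate, Kit lay between 9.69 and 10.72 over the 6 arrays, and Ly6a, which encodes Sca1, was not analysed here. The 3′ minus 5′ difference of the control probe sets differed between groups by 0.03 for Actb (two-sided exact permutation p = 0.5) and 0.02 for Gapdh (exact permutation p = 0.9), where 3 arrays against 3 cannot go below 0.1.

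Cxcl12, the chemokine that holds stem cells in marrow, stood clear in all 3 GFP-positive arrays by 1 of its 3 probe sets. Its brightest probe set, 1417574_at, lay at 12.52, 9.27 and 8.33 in the GFP-positive arrays, against 5.34, 5.52 and 5.38 in the GFP-negative arrays. All 3 GFP-positive arrays were well above all GFP-negative ones, which lay together at the guide to background. As ratios of the deposited values to the GFP-negative mean, the GFP-positive arrays stood at 138-fold, 14.5-fold and 7.59-fold. Since the GFP-negative values were not above the upper guide, these ratios and the difference do not measure how much lower the GFP-negative level was, and the same holds for other probe sets whose GFP-negative values lie at or under the guides. The mean difference was 4.63 ± 1.06 (log2, SE, n = 3 per group), and 3.39 without GFP-positive replicate 1. Here and below, SE is limma's moderated standard error, from the fit to all probe sets for members and to all genes for list genes. It is not the plain standard error of the 6 values. In a bulk array, more cells that make a transcript and more transcript per cell cannot be told apart, here and for every gene that follows.

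The other Cxcl12 probe sets did not repeat this in full. Probe set 1448823_at lay at 9.86, 6.51 and 4.54 in the GFP-positive arrays and between 4.08 and 4.23 in the GFP-negative ones. It was thus far above in replicates 1 and 2 and only 0.31 above the highest GFP-negative array in replicate 3, below the guide of 4.69. Probe set 1439084_at lay between 6.03 and 6.77 in GFP-positive and between 6.20 and 6.79 in GFP-negative arrays, with the groups overlapping. The statement that Cxcl12 stood high in GFP-positive replicate 3 rests on 1417574_at alone.

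Kitl, the ligand of the Kit receptor, was dim throughout. By its brightest probe set it lay at 7.21, 5.73 and 6.03 in the GFP-positive arrays and at 5.66, 5.83 and 5.54 in the GFP-negative arrays. Only GFP-positive replicate 1 stood clear, 2.89-fold above the GFP-negative mean, and replicate 2 lay within the GFP-negative range. The mean difference was 0.65 ± 0.40 (log2, SE, n = 3 per group), and 0.20 without that array. A second Kitl probe set, 1415855_at, was also highest in GFP-positive replicate 1, at 4.63, and at most 3.53 elsewhere. Every value of it lay under the lower guide of 4.69. By it GFP-positive replicates 2 and 3 lay above the GFP-negative arrays too, by 0.19 and 0.35. The other 2 probe sets were at or under 5.58 on every array and did not reach the margin.

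**Figure D1:**
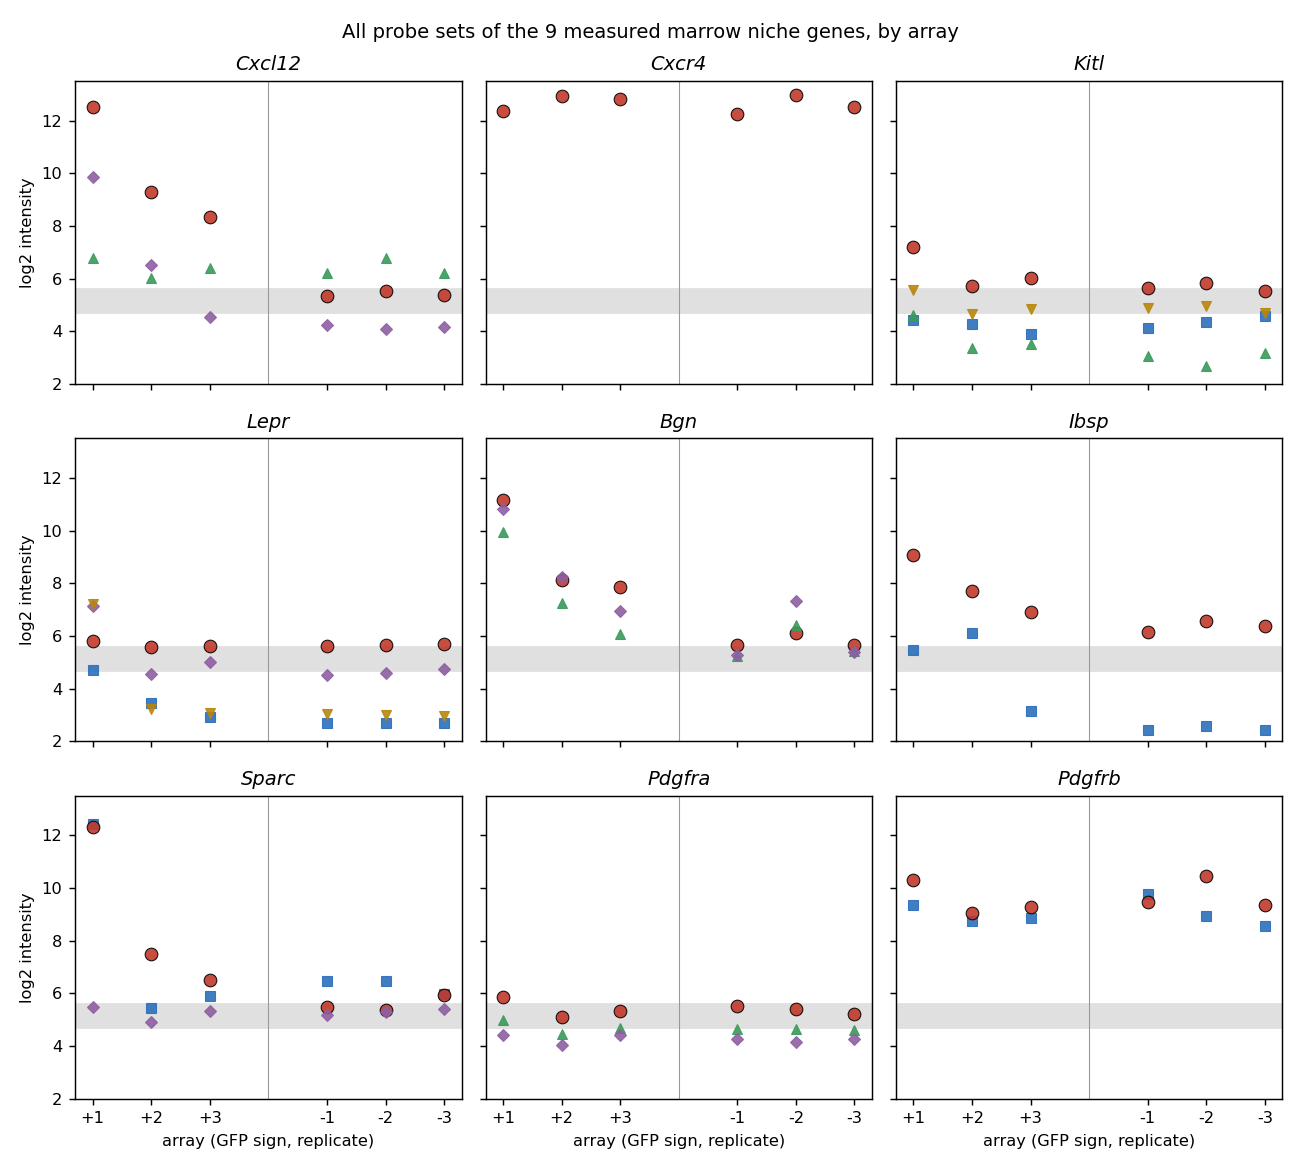
Log2 intensity of every probe set (points of one colour and shape) of the 9 measured genes, in GFP-positive (+) and GFP-negative (-) replicates 1 to 3. Large outlined red circles are the probe set of highest mean, and the grey band spans the guides to background, 4.69 to 5.59. Cxcl12 and Bgn stand above the GFP-negative arrays in all 3 GFP-positive arrays by that probe set, Sparc reaches 12.32 in GFP-positive replicate 1, and Cxcr4 lies above 12 on every array.

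Cxcr4, the receptor for Cxcl12 on blood stem cells, was bright on every array. Its only probe set lay at 12.35, 12.92 and 12.83 in the GFP-positive arrays, against 12.24, 12.97 and 12.52 in the GFP-negative arrays. The groups overlapped, and the mean difference was 0.12 ± 0.26 (log2, SE, n = 3 per group), and 0.30 without GFP-positive replicate 1. In both groups replicate 1 had the lowest Cxcr4. Cxcl12, by its brightest probe set, was highest in the GFP-positive replicate 1 and at 5.34 in the GFP-negative one.

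Lepr, the leptin receptor that marks perivascular stroma, gave probe sets that disagreed. The brightest, 1425873_a_at, lay between 5.57 and 5.79 in GFP-positive and between 5.62 and 5.69 in GFP-negative arrays, which is flat and near the guide to background. The other 3 all stood high in GFP-positive replicate 1. Of these, 1456156_at was at 7.21 there, at 3.22 and 3.08 in the other GFP-positive arrays, and between 2.96 and 3.04 in the GFP-negative arrays. Apart from the 1 high array, every value of this probe set lay under the lower guide of 4.69. Probe set 1425875_a_at was at 7.13 in GFP-positive replicate 1 and between 4.52 and 5.02 elsewhere, and 1425644_at at 4.72 there and at or below 3.46 elsewhere. Without GFP-positive replicate 1 the differences of the 4 probe sets lay between -0.07 and 0.48 (log2). The files do not say which splice forms each probe set detects.

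The receptors for platelet-derived growth factor, Pdgfra and Pdgfrb, are markers of mesenchymal stroma and pericytes, and neither followed Cxcl12. Pdgfra was dim: its brightest probe set lay at 5.87, 5.10 and 5.33 in the GFP-positive arrays and at 5.52, 5.42 and 5.20 in the GFP-negative ones. Its 3 probe sets had mean differences between 0.05 and 0.07 (log2), with overlapping groups, and between -0.16 and 0.00 without GFP-positive replicate 1. In the RefSeq gene order it lies between Gsx2 and the receptor gene Kit. The endothelial receptor gene Kdr, next after Kit and picked after its values were seen, measured 10.45 in GFP-positive replicate 1 and at most 6.60 elsewhere. Pdgfrb was bright in both groups, at 10.30, 9.07 and 9.28 in the GFP-positive and 9.47, 10.44 and 9.37 in the GFP-negative arrays by probe set 1436970_a_at. Its mean difference was -0.21 ± 0.44 (log2, SE, n = 3 per group), and the second probe set gave -0.09 ± 0.36. Without GFP-positive replicate 1 these became -0.58 and -0.28. The 2 Pdgfrb probe sets did not order the arrays alike: GFP-negative replicate 2 was highest by 1436970_a_at and GFP-negative replicate 1, at 9.76, by 1417148_at.

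Bgn encodes biglycan, a small leucine-rich proteoglycan of bone and connective tissue. Probe set 1416405_at lay at 11.15, 8.12 and 7.87 in the GFP-positive arrays and at 5.67, 6.11 and 5.65 in the GFP-negative arrays. All 3 GFP-positive arrays were above, by 40.4-fold, 4.96-fold and 4.18-fold over the GFP-negative mean. The mean difference was 3.24 ± 0.89 (log2, SE, n = 3 per group), and 2.19 without GFP-positive replicate 1. Replicate 1 also stood highest by the other probe sets, at 10.81 by 1448323_a_at and 9.95 by 1437889_x_at. By these, GFP-negative replicate 2 was itself high, at 7.35 and 6.41, and GFP-positive replicate 3, at 6.96 and 6.08, lay below it. By 2 of its 3 probe sets, then, Bgn stood 1 unit clear in replicate 1 alone.

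Sparc, osteonectin, binds collagen and calcium and is made by osteoblasts, stroma, endothelium and platelets. It was at 12.32 by 1448392_at and 12.43 by 1416589_at in GFP-positive replicate 1, 106-fold and 69.6-fold above the GFP-negative means. The probe sets parted in the other arrays. By 1448392_at replicates 2 and 3 were at 7.49 and 6.50, above the GFP-negative arrays at 5.49, 5.37 and 5.95. By 1416589_at they were at 5.46 and 5.89, below the GFP-negative arrays at 6.47, 6.45 and 6.00. Without GFP-positive replicate 1 the mean difference was 1.39 by the one and -0.63 by the other, so the direction in replicates 2 and 3 depended on the probe set. The third, 1458204_at, lay between 4.93 and 5.47 on every array.

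Ibsp, bone sialoprotein, is a mineral-binding protein of osteoblasts and is usually taken as a marker of late bone formation. Its brighter probe set lay at 9.06, 7.71 and 6.92 in the GFP-positive arrays and at 6.14, 6.57 and 6.39 in the GFP-negative arrays. The other, 1417484_at, lay at 5.47, 6.13 and 3.14 against 2.43, 2.60 and 2.44. By both, all 3 GFP-positive arrays were above the GFP-negative ones, but replicate 3 by only 0.36 and 0.54. The second probe set was highest in GFP-positive replicate 2, so the 2 Ibsp probe sets ordered these arrays differently. The mean differences were 1.53 ± 0.54 and 2.42 ± 0.76 (log2, SE, n = 3 per group), and 0.95 and 2.15 without GFP-positive replicate 1.

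**Figure D2:**
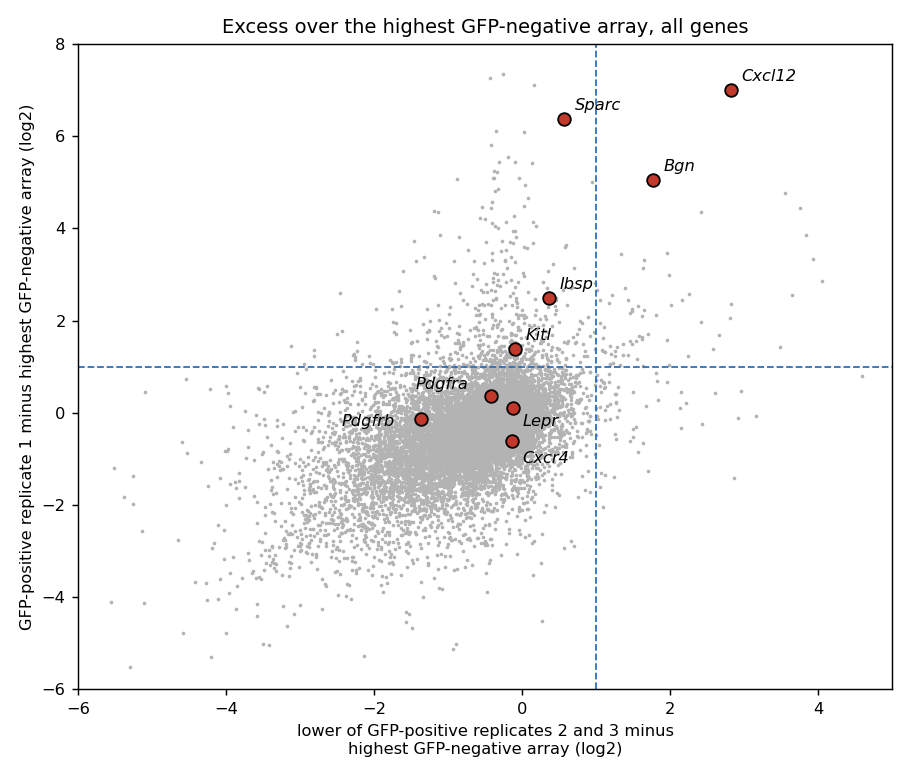
Each grey point is 1 of 18193 genes and red points are the 9 measured members, by the probe set of highest mean. The vertical axis is the excess of GFP-positive replicate 1 over the highest GFP-negative array and the horizontal axis that of the lower of GFP-positive replicates 2 and 3 (both log2), with dashed lines at the margin of 1. Cxcl12 and Bgn lie past both lines, Sparc, Ibsp and Kitl past the horizontal line alone, and the other 4 past neither.

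By the brightest probe sets, then, 2 of the 9 genes stood clear in all 3 GFP-positive arrays, 2 in replicates 1 and 2 and 1 in replicate 1. All 3 GFP-positive arrays lay above all GFP-negative ones in 4 of the 9, Cxcl12, Bgn, Ibsp and Sparc, against 5.89% of all genes. Closest to the margin on the inside was Ibsp in replicate 2, at 1.15, and closest outside was Sparc in replicate 3, at 0.56. Counted by probe set, 2 of the 25 stood clear in all 3 GFP-positive arrays (0.271% of all probe sets), 4 in replicates 1 and 2 alone (0.342%) and 8 in replicate 1 alone (2.47%), and 11 in none. All 14 that stood clear included GFP-positive replicate 1. Since the genes were picked from this contrast, these shares describe the choice and carry no test. The median difference was 0.65 (log2) over the 9 genes and 0.01 over all genes. The former is the value of Kitl, which was 0.20 without GFP-positive replicate 1. Across all genes limma called 0 of 18193 (0%) at an adjusted p under 0.05. Before adjustment, p was under 0.05 for 606 genes that were higher in GFP-positive arrays and 614 that were lower. It called 0 of 45037 probe sets, of which 1291 were higher and 1474 lower with p under 0.05 before adjustment.

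Both replicate 1 arrays were female, and the part of sex in the levels of GFP-positive replicate 1 was not tested. In GFP-negative replicate 1, by the brightest probe sets, Cxcl12 was at 5.34, Sparc at 5.49, Bgn at 5.67 and Ibsp at 6.14. Within the male arrays alone the differences were 3.36 for Cxcl12, 2.12 for Bgn, 1.34 for Sparc, 0.84 for Ibsp and 0.19 for Kitl (log2).

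Genes that other cells of the marrow express were also high in these arrays, and their part in the values above was not tested. The gene lists here and below were chosen with earlier results of these data known, so limma counts within them describe the choice. Of 22 stromal markers besides the members, 7 stood clear in GFP-positive replicate 1 alone, 3 in replicates 1 and 2 and 0 in all 3, and 16 were highest in replicate 1. Their summed intensity was 17861 in GFP-positive replicate 1, 10465 and 12161 in replicates 2 and 3, and 10011 to 11010 in GFP-negative arrays. Adipoq, the adipocyte hormone that also marks Cxcl12-rich stroma, measured 9.50, 6.26 and 3.27 in the GFP-positive arrays and at most 3.69 in GFP-negative arrays. The complement inhibitor gene Serping1 was at 10.23 in GFP-positive replicate 1 and between 4.48 and 4.96 elsewhere. Foxc1, Il7, Prrx1, Snai2 and Il1rn stayed at or under the guide of 5.59 on every array. The median difference over the list was 0.57 (log2), and 0.01 without GFP-positive replicate 1. By limma 0 of the 22 passed over all genes, with 5 higher at an unadjusted p under 0.05. The smallest limma p-values belonged to the haptoglobin gene Hp at 1.54 ± 0.36 (log2, SE, adjusted p = 0.457) and the gap junction gene Gja1 at 2.05 ± 0.54 (adjusted p = 0.528), with 6 Gja1 probe sets ranging from -0.16 to 2.05.

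Of the 16 osteoblast and bone matrix genes measured, 3 stood clear in GFP-positive replicate 1 alone and 12 in no array. Their summed intensity was 2631 in GFP-positive replicate 1, 745 and 574 in replicates 2 and 3, and 568 to 906 in GFP-negative arrays. The type I collagen genes led: Col1a2 was at 10.42, 7.70 and 6.16 in the GFP-positive arrays and between 6.30 and 6.90 in the GFP-negative ones. Col1a1 was at 8.96 in GFP-positive replicate 1 and between 5.30 and 5.61 elsewhere. Their mean differences ranged from 0.07 to 1.45 over 3 Col1a2 probe sets and from 0.37 to 1.24 over 2 Col1a1 probe sets (log2). Sp7, the osteoblast transcription factor, and Dmp1, Phex, Mepe, Lum, Omd and Mmp13 lay at or under 5.59 on every array, and Runx2 and Bglap were not analysed here. The median difference was 0.17 (log2), and 0.02 without GFP-positive replicate 1. Limma called 0 of the 16 over all genes, and 2, Dmp1 at 0.69 ± 0.22 (adjusted p = 0.611; -0.19 to 0.69 over its 3 probe sets) and Ogn at 1.03 ± 0.42 (adjusted p = 0.745), were higher at an unadjusted p under 0.05.

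Ibsp lies in a cluster of related acidic matrix genes, and its protein-coding neighbours in the RefSeq order are Sparcl1, Dspp and Dmp1 on one side and Mepe and Spp1 on the other. None of the measured neighbours shared its level: Sparcl1, Dspp and Mepe lay between 3.20 and 4.93 on every array, and Dmp1 at 4.63, 4.78 and 4.21 in GFP-positive and 3.60, 4.05 and 3.90 in GFP-negative arrays. Among 18 small leucine-rich and matricellular relatives of Bgn, Sparc and Ibsp, 13 stayed at or under 5.59 on every array and 17 stood clear in no GFP-positive array. The exception was Prelp, a proteoglycan of connective tissue, at 8.07 in GFP-positive replicate 1 and between 5.17 and 5.53 elsewhere. No gene of this list passed over all genes by limma (smallest adjusted p = 0.611; median difference 0.05, log2, and 0.01 without GFP-positive replicate 1), and 2, Dmp1 and Ogn, were higher at an unadjusted p under 0.05.

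Most endothelial markers and a few pericyte genes were high in GFP-positive replicate 1 too. Over the pericyte and smooth muscle list, the median in that array was only 0.22 above the GFP-negative mean (log2). Of 12 pericyte and smooth muscle markers 3 stood clear there alone and 9 in no array, with summed intensities of 4976 there and 617 to 815 on the other arrays. The channel genes Abcc9 and Kcnj8, which mark pericytes, were at 11.72 and 9.45 in that array and at or below 4.47 and 3.91 elsewhere. Myh11, of smooth muscle, lay between 6.16 and 6.67 on every array. Of 22 endothelial markers 13 stood clear in replicate 1 alone and 1, Tek, in all 3. Fabp4, a fatty acid carrier, was at 12.86, 6.53 and 5.90 in GFP-positive and at most 5.75 in GFP-negative arrays, and Flt4, a lymphatic and sinusoidal receptor, at 11.04 in replicate 1 and at most 5.98 elsewhere. Their summed intensity was 28737 in GFP-positive replicate 1 and 4527 to 7080 on the other 5 arrays. The median differences were 0.05 and 1.08 (log2), and -0.05 and 0.02 without GFP-positive replicate 1. Limma called 0 genes of either list (smallest adjusted p = 0.918 and 0.255). Tek and Tie1, at 2.82 ± 0.45 and 0.80 ± 0.21 (log2, SE; limma adjusted p = 0.255 and 0.528), are also expressed by blood stem cells.

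**Figure D3:**
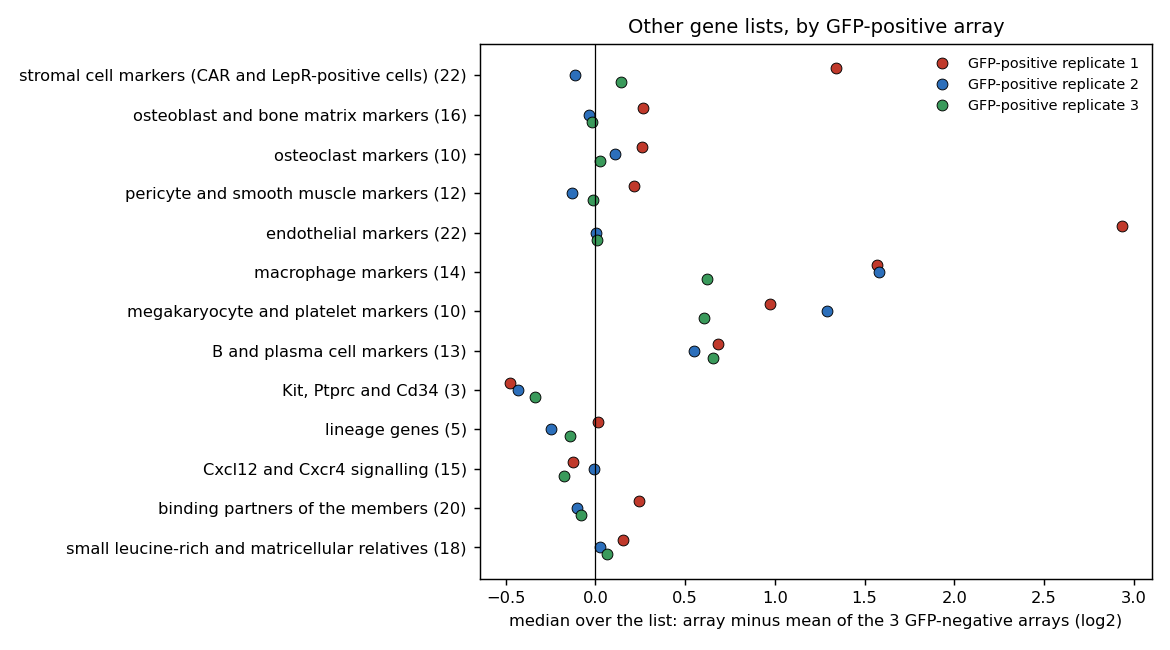
Median over each gene list (number of measured genes in brackets) of the GFP-positive array minus the mean of the 3 GFP-negative arrays, in log2, for GFP-positive replicates 1 (red), 2 (blue) and 3 (green). Endothelial and stromal markers stand at 2.93 and 1.34 in replicate 1 and near 0 in the others. Macrophage, megakaryocyte and B cell markers lie between 0.55 and 1.58 in all 3.

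The lists for macrophages, megakaryocytes and platelets, and B and plasma cells had medians 0.55 to 1.58 above the GFP-negative mean (log2) in all 3 GFP-positive arrays. The osteoclast, endothelial and matricellular lists were also above it in all 3, but by at most 0.11 in replicates 2 and 3. The 5 measured lineage genes of the sort gate, read below, were above it in replicate 1 alone, with medians of 0.01, -0.25 and -0.14 in replicates 1, 2 and 3. Macrophage markers had medians of 1.57, 1.58 and 0.62 above the GFP-negative mean in replicates 1, 2 and 3, and summed intensities of 3828 to 7810 against 1102 to 1886 in GFP-negative arrays. Cd5l, a secreted macrophage protein, was at 9.19, 9.45 and 8.87 against 5.54, 6.86 and 5.79, and C1qb, a complement subunit, at 10.78, 11.78 and 8.67 against 8.73, 4.66 and 4.70. Mrc1 was at 9.38, 6.93 and 5.35 against 7.12, 3.86 and 4.73, so only replicate 1 lay above every GFP-negative array. The general macrophage marker Adgre1 lay at or under 5.59 on every array. Megakaryocyte and platelet markers, whose cells also carry Sparc, had medians of 0.97, 1.29 and 0.61, with sums of 7486 to 10464 against 2047 to 3397. Pf4, platelet factor 4, was at 12.24, 12.22 and 11.98 against 10.80, 9.23 and 7.36. B and plasma cell markers had medians of 0.68, 0.55 and 0.65, with sums of 5671 to 11337 against 2257 to 4180. Ebf1, a B lineage factor also made by Cxcl12-rich stroma, was at 7.44, 6.96 and 7.86 against 5.23, 4.94 and 5.34. Jchain, of antibody-secreting cells, measured 9.97, 9.95 and 3.50 in the GFP-positive arrays, high in replicates 1 and 2 alone. Ms4a1, of the same list, lay at or under 5.59 on every array. The median differences of the 3 lists were 1.72, 0.97 and 0.76 (log2), and 1.24, 0.95 and 0.40 without GFP-positive replicate 1. Of their 14, 10 and 13 markers, 2 of each list stood clear in all 3 GFP-positive arrays, where 0.363% of all genes did. In no GFP-positive array did 5, 5 and 7 of them stand clear. The difference was above 0 for 12, 10 and 9. Over all genes limma called 0 of these 14, 10 and 13 markers, with 7, 6 and 3 higher at an unadjusted p under 0.05. Of all 18193 genes, 606 were higher at that limma p. Since the lists were chosen with earlier results known, these counts carry no test. The smallest adjusted p was 0.174 for Gp1bb, of the platelet von Willebrand receptor, at 2.10 ± 0.24 (log2, SE).

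Osteoclasts resorb bone. Of 10 osteoclast genes 1, Ctsk, the collagen-degrading protease, stood clear in GFP-positive replicate 1 alone, at 6.11 against at most 5.08 in the GFP-negative arrays. Acp5, the acid phosphatase of osteoclasts, was at 5.79, 8.50 and 7.11 in GFP-positive and at most 5.92 in GFP-negative arrays, highest in replicate 2. Dcstamp, needed for osteoclast fusion, was at 4.27, 5.90 and 4.14 against 6.96, 6.79 and 5.33. Summed intensities were 722, 2049 and 672 in the GFP-positive arrays and 452 to 1058 in GFP-negative arrays. These sums include Itgb3, also counted among the megakaryocyte markers, at 8.44, 10.46 and 8.13 against 6.37, 9.38 and 7.28. The median difference was 0.13 (log2), and 0.05 without GFP-positive replicate 1. None of the 10 passed by limma (smallest adjusted p = 0.737, for Dcstamp at -1.59 ± 0.64, log2, SE, the only gene with an unadjusted p under 0.05).

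The genes that relay the Cxcl12 signal inside blood cells had summed intensities of 34064 to 36412 in GFP-positive and 34912 to 38672 in GFP-negative arrays. All 15 measured genes of Cxcl12 and Cxcr4 signalling, among them G proteins, Rac GTPases, integrins and arrestin, stayed short of the margin in every GFP-positive array, and limma called 0 (smallest adjusted p = 0.773; 0 at an unadjusted p under 0.05). Their median difference was -0.14 (log2), against 0.01 over all genes, and -0.13 without GFP-positive replicate 1. Ackr3, the scavenger receptor for Cxcl12, lay between 3.20 and 3.72 on every array, and Rgs1, which damps chemokine receptors, between 10.61 and 12.43. Dpp4, the protease that inactivates Cxcl12, was at 9.68, 9.41 and 9.25 against 10.11, 10.49 and 9.37 (-0.54 ± 0.32, log2, SE, adjusted p = 0.89; -0.54 to 0.01 over its 4 probe sets).

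Among 20 ligands, receptors and proteases that bind or cut the members' products, 3 stood clear in GFP-positive replicate 1 alone and 15 in no GFP-positive array. Stab1, a scavenger receptor that takes up Sparc, was at 8.38 in replicate 1 and between 4.54 and 5.10 elsewhere, and the chemokine Cxcl14 at 7.28 against at most 5.75 elsewhere. Kit, the Kitl receptor, was lowest in GFP-positive replicate 1 at 9.69 and lay between 10.30 and 10.72 on the other arrays. Cd44, which binds osteopontin and hyaluronan, was at 10.51, 10.32 and 10.58 against 10.95, 11.31 and 10.63, and the integrin chain Itgav at 7.48, 8.56 and 8.21 against 8.68, 9.24 and 9.02. Limma called 0 of the 20, with 1, Itgav, lower at an unadjusted p under 0.05 (-0.90 ± 0.32, log2, SE, adjusted p = 0.667). The sign turned with the probe set, from -0.90 to 1.00 over 5 for Itgav and from -0.49 to 0.36 over 4 for Cd44. The median difference of the list was 0.11 (log2), and 0.01 without GFP-positive replicate 1.

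Surface genes were read as a check of the cells. Kit, of the gate, with the blood cell gene Ptprc and the progenitor gene Cd34, had a median difference of -0.43 (log2), and -0.38 without GFP-positive replicate 1, with summed intensities of 6153 to 7187 in GFP-positive and 9066 to 9719 in GFP-negative arrays. Limma called 0 of them, and Cd34, at -0.63 ± 0.17 (log2, SE, adjusted p = 0.528), was lower at an unadjusted p under 0.05. For Ptprc the sign turned with the probe set, from -0.28 to 0.64 over 2. The 5 measured of 10 lineage genes, with a median difference of -0.09 (log2) and -0.19 without GFP-positive replicate 1, stood clear in no GFP-positive array, with sums of 538 to 680 against 712 to 1201. Cd3e and Cd8a of T cells lay between 5.38 and 6.93, Cd4 between 8.22 and 9.92, and Itgam of myeloid cells was at 6.65, 5.21 and 5.86 against 5.92, 7.65 and 6.33.

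Profiles over the 6 arrays were compared by shape. Among 2803 genes whose arrays spanned at least 2 log2 units, the 5 most like Cxcl12 by Pearson correlation were Bgn (r = 0.993), the stress gene Nupr1 (0.993), the stem cell homeobox gene Hoxb5 (0.983), Ctnnal1 (0.978) and Ibsp (0.974), and Sparc ranked 24th (0.936). Hoxb5 was at 8.42, 7.20 and 6.92 in GFP-positive and at most 4.97 in GFP-negative arrays. The 5 most like Kitl, among 2804 genes, were A030001D20Rik (0.996), the pericyte and endothelial adhesion gene Mcam (0.995), Xylb (0.989) and the endothelial genes Kdr (0.985) and Ptprb (0.984), with Cxcl12 at rank 177 (0.862). For Sparc, added after its values were seen, they were Spata1 (0.999), Tgfbr3 (0.991), Gprin2 (0.991), Gpc1 (0.99) and the endothelial hypoxia factor Epas1 (0.99). With 6 arrays that share 1 outlying library these correlations describe shape only.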

How the data were processed

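Total RNA (5 ng) from sorted cells was amplified, labelled and hybridised to arrays whose probe set names are Affymetrix's, per the labels' protocols and the files. The authors deposited 1 linear intensity per probe set and array, made with RMA per the submitters' processing notes, for which neither a version nor options were found (not given in the sources used here). Background correction of this kind can alter differences among dim probe sets. Array medians were 74 to 78.5, so log2 was taken with no pseudocount or further normalisation; the number of arrays limits precision. Probe sets with 1 symbol in the platform annotation (34945) were kept, without the 64 control probe sets; 932 had several symbols and 9160 none. The probe set of highest mean stood for each of 18193 genes. All 25 member probe sets matched the RefSeq symbol of their gene ID.

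Groups were compared with limma 3.58.1 (R 4.3.3; lmFit, eBayes, no covariate, Benjamini-Hochberg over all genes, threshold 0.05), tested on simulated data. "Standing clear" means at least 1 log2 unit above the highest GFP-negative array. The members, lists and alternatives were chosen with earlier results of these data known. Named genes were all members, and genes from among the 2 of each list farthest above the GFP-negative mean in GFP-positive replicate 1 and the 2 of smallest p. Hmox1, Vwf and Cd79a met these rules and are not described. For profiles they were the 5 genes most correlated with Cxcl12 and with Kitl. Genes named as dim, neighbouring or missing, the Sparc profile and the list medians without GFP-positive replicate 1 were added after values were seen. Figures used matplotlib 3.10.9. Alternatives were probe set averaging, filters on dim genes, normalisation, covariates, margins and leaving out arrays.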

Additional observations from a re-analysis of the deposited data

How the results depend on the processing

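Of 17 alternatives for the count of genes called by limma over all genes, 0 in the comparison as reported, 13 also gave 0. It was 1 at a threshold of 0.1, 1 among genes above the 40th percentile of mean level and 2 above the 60th, and it ranged from 0 to 5 when arrays were left out, with 5 without GFP-positive replicate 3. With the replicate block it was 0 (smallest adjusted p = 0.352). Same-numbered arrays deviated together weakly (r = 0.124, 0.05 and 0.092), each best with its own number, against -0.098 to 0.008 for other pairs. Both replicate 1 arrays were also the female ones. The labels do not say whether the numbers pair the samples, so pairing was left out of the main comparison and is not settled here. The number of members standing clear in all 3 GFP-positive arrays, 2 as reported, was 1 with a margin of 2, 0 with the mean of all probe sets and 1 with the probe set of largest range, which was chosen after seeing the data, and 3 with a margin of 0.5 and without GFP-negative replicate 3 (2 without either other GFP-negative array). The number in GFP-positive replicate 1 alone, 1 as reported, was 2 with a margin of 2, 2 with the mean of all probe sets and 4 with the probe set of largest range. The difference stayed positive under all 11 alternatives for Cxcl12 (2.48 to 5.49), Bgn (2.12 to 3.82), Sparc (1.34 to 4.30), Ibsp (0.84 to 2.02) and Kitl (0.19 to 0.94), and took both signs for Cxcr4, Lepr, Pdgfra and Pdgfrb. Dim probe sets near the guides to background limit what can be read of Kitl, Lepr and Pdgfra.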
